A study of Mus musculus with 2207 samples.

Results

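The neurons described here were the cortical neuronal nuclei with the highest levels of 5 immediate early genes, Fos, Junb, Arc, Egr1 and Nr4a1. An activity score was the mean over these 5 genes of log2(RPKM+1), where RPKM is the number of reads on a gene scaled to the length of the gene and the reads of the nucleus. High-activity neurons were chosen by this score alone, as the nuclei labelled as neurons at or above its 90th percentile over all neurons of the same plate format. Of 1664 neurons, in a series of 2207 single nuclei, 1497 stayed below this threshold and the rest, 10.04%, were high-activity neurons, of which 52 came from the 518 neurons sorted into 96-well plates and the others from the 1146 neurons sorted into 384-well plates. The score genes chose the nuclei, so their values are given as a description without a test.

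The nuclei came from the brain cortex of C57BL/6 mice (C57BL6/J in the study's methods) of 14 weeks of age and were measured by RamDA-seq, a full-length total RNA method for single cells. Loss of 1 copy of Ehmt1, which encodes the histone H3 lysine 9 methyltransferase GLP, was compared with its presence in 6 pools, and each genotype came from 3 mice. The 96-well plates held a wild-type (WT) pool and a pool labelled Ehmt1Δ/+. According to the labels, the 384-well WT pool and the 384-well pool labelled Ehmt1Δ/+ also carried the inducible Ehmt1 transgene (iTg) without CamKII-CreER. The iTg pool and the pool labelled Ehmt1Δ/+; iTg carried iTg with CamKII-CreER, which is expressed in postnatal forebrain neurons. The study's legends instead describe a CamKII-CreER series in which only the groups named for iTg carry it. Comparisons by CreER below follow the labels. Per the labels, all groups, controls included, had been given tamoxifen when 3 weeks old, in 2 doses of 100 mg/kg, which the study's methods place a week apart. No nucleus can be tied to a mouse, so the pool is the unit of replication and p-values measure the spread between pools.

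Immediate early genes are transcribed within minutes of synaptic input without new protein synthesis. Calcium entry through NMDA receptors and L-type channels activates CaM kinases and the ERK pathway, which act through CREB at cAMP response elements (CRE) and through SRF at CArG boxes. The first products are mostly transcription factors (Fos, Junb, Egr1, Nr4a1, Npas4), while Arc protein acts at the synapse. A later wave encodes secreted and synaptic proteins such as Bdnf and Homer1, and phosphatases such as Dusp1 and Dusp6 switch the ERK pathway off again.

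The promoters of Fos, Nr4a1, Npas4 and Dusp1 are shown because the first pair belongs to the score and the second pair to the genes with the largest differences outside it. Each line holds the 250 bases before the annotated start, 5′ to 3′ in the direction of the gene, from RefSeq on GRCm38.p6. Capitals mark TGACG or its reverse complement CGTCA (the short form of the CRE), the full palindrome TGACGTCA, which overlaps the short form, and TATAAA on either strand.
Fos, chr12:85473640-85473889, plus strand: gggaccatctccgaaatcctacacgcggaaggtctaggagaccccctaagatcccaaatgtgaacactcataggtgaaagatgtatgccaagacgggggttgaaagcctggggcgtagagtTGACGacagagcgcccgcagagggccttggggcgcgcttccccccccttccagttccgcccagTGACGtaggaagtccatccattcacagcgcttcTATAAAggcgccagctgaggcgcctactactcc
Nr4a1, chr15:101266596-101266845, plus strand: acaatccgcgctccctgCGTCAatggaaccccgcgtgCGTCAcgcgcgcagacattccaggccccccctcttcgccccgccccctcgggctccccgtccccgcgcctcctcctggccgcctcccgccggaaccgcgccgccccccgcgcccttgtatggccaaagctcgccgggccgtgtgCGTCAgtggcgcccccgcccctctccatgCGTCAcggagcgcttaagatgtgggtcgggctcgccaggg
Npas4, chr19:4989972-4990221, minus strand: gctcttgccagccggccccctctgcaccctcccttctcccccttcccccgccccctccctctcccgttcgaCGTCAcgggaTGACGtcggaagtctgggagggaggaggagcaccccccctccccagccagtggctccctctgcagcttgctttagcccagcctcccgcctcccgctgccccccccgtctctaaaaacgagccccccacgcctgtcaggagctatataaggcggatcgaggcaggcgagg
Dusp1, chr17:26508473-26508722, minus strand: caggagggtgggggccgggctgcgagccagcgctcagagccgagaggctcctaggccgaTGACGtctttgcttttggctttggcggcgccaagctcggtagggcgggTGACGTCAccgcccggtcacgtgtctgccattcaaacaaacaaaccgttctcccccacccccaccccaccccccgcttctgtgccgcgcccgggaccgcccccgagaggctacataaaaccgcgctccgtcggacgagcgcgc
The Fos promoter held the short CRE at -129 and -66 from the start and TATAAA at -33. Nr4a1 held 4 short CREs, Npas4 held 2, and Dusp1 held 1 full CRE among 3 short matches.

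Over windows of 250 bases before to 50 after the start, the short CRE stood in 6837 of 32851 RefSeq promoters of this build outside chromosome 18 (20.8%). It stood in 31 of 53 promoters (58.5%) of the 38 matched genes that were higher in high-activity neurons of the Slc17a7 class, the comparison described below. The full CRE stood in 1.79% of all promoters and in 5.66% of that set (3 promoters), and the CArG box in 1.63% and 3.77% (2 promoters). The short CRE stood in 40.4% of promoters of the genes higher over all neurons. In the lists described below it stood in 63.6% (transcription factors, 14 of 22 promoters), 37.5% (ERK feedback, 3 of 8) and 30% (effectors, 9 of 30). The CArG box stood in 18.2% (4 of 22 promoters), 12.5% (1 of 8) and 0% (0 of 30) of these lists. Base composition differed in the same direction, with a median GC content of 52.7% over all promoters and 64.7% in the Slc17a7-class set. The median count of CG pairs, of which the short CRE holds 1, was 7 and 23 per window. The part of base composition in these shares was not tested. These matches are descriptions of the letters in the window and not of binding.

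Read totals recovered from the RPKM steps had a median of 352988 per neuron, from 43592 to 1332270, and of 351555 in high-activity neurons. Neuronal identity was checked by 5 markers (Snap25, Rbfox3, Syt1, Tubb3, Stmn2), whose summed mean RPKM was 175.7 to 302.7 in high-activity and 163.7 to 260.6 in remaining neurons. Ehmt1, the targeted gene, went against the labels, since its mean RPKM in remaining neurons was 18.998, 19.9 and 20.5 in the Ehmt1-normal pools and 31.4, 31.7 and 33.3 in the pools labelled Ehmt1Δ/+. Whether reads fall in the deleted part of the gene was not tested. In the pools with CreER, reads of the induced transgene were not told apart from those of Ehmt1 itself. By western blot, the study reported less GLP protein in Ehmt1Δ/+ than in WT brain. All directions by Ehmt1 below therefore refer to the labels.

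The 5 score genes set the members apart at different levels. Arc, whose product traffics glutamate receptors, and the orphan nuclear receptor Nr4a1 gave the largest parts of the score, a mean of 27.7% and 25.2% of it in the 384-well members and 29.4% and 29.7% in the 96-well members. Arc had a mean of 97.4 RPKM in high-activity WT and 41.3 RPKM in high-activity neurons labelled Ehmt1Δ/+ of the 96-well plates. In the 384-well plates its mean was 558 RPKM in WT, 489 in the pool labelled Ehmt1Δ/+, 425 in iTg and 402 in the pool labelled Ehmt1Δ/+; iTg. Remaining neurons held between 13.4 and 64.6 RPKM of Arc. The mean of high-activity neurons in the 96-well pool labelled Ehmt1Δ/+ thus lay below that of remaining neurons in each 384-well pool.

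Fos, which pairs with Jun proteins in the AP-1 factor, was the score gene most often absent from remaining neurons, at 0 RPKM in the median nucleus of all 6 pools. Its mean in high-activity neurons was 6.51 RPKM in WT and 8.47 in the pool labelled Ehmt1Δ/+ of the 96-well plates, against 21.9 to 77.5 RPKM in the 384-well pools. Egr1, a zinc-finger factor, reached 34.5 and 9.38 RPKM in those 96-well pools and 78.7 to 136.5 RPKM in the 384-well pools. Junb, another AP-1 subunit, was the lowest of the 5, with 1.52 to 26.9 RPKM in high-activity and 0.708 to 2.08 RPKM in remaining neurons.

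All 5 genes were above 0 in 32 of 52 members from 96-well plates and in all but 12 of the members from 384-well plates, where those 12 had 4 of the genes. Across neurons the genes varied together more in the 384-well plates, where the rank correlation was 0.611 between Arc and Nr4a1 and 0.229 between Junb and Nr4a1 over 1146 neurons. In the 96-well plates the same pairs gave 0.470 and 0.0294 over 518 neurons. These nuclei share plates and depth, and the correlations are descriptions.

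The threshold was a score of 3.25 for the 96-well format and 4.94 for the 384-well format. The nearest neurons outside scored 3.25 (16.5 RPKM of Arc and 40.8 of Nr4a1) and 4.94 (49.5 and 39.03 RPKM), and the nearest inside scored 3.26 (81.2 and 18.2 RPKM) and 4.94 (47.3 and 260.4 RPKM). Scores were continuous across the threshold in each pool, as the plot of the score of each neuron shows. At the 384-well threshold, 2.37% of 96-well WT neurons (6 nuclei) and 0 neurons of the 96-well pool labelled Ehmt1Δ/+ would have been high-activity neurons, where a count of 0 allows a share of up to 1.13%. High-activity neurons of both formats are therefore the top of their own format and not nuclei of equal level.

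**Figure D1:**
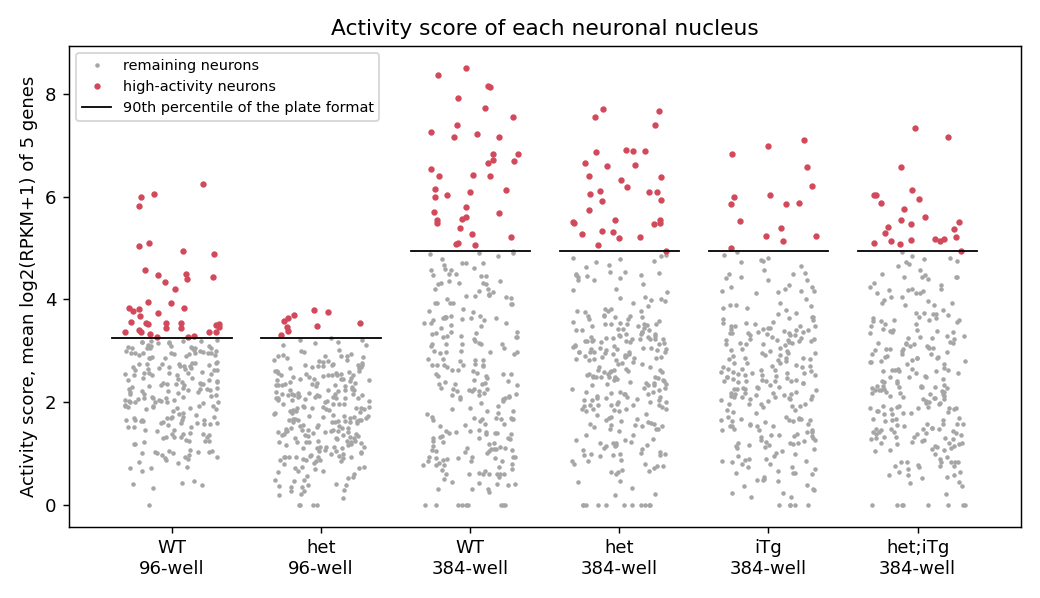
Activity score (mean log2(RPKM+1) of Fos, Junb, Arc, Egr1 and Nr4a1, y axis) of each neuronal nucleus in the 6 pools (x axis, het for pools labelled Ehmt1Δ/+). Red points are the high-activity neurons, grey points the 1497 remaining neurons, and the black line is the threshold of 3.25 or 4.94 of the plate format. The highest score was 6.25 and 3.79 in the 96-well pools and lay between 7.09 and 8.51 in the 384-well pools.

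The share of high-activity neurons varied between the pools. Among neurons from 96-well plates they made up 16.6% of WT (42 nuclei, exact 95% interval 12.2 to 21.8) and 3.77% of the pool labelled Ehmt1Δ/+ (10 nuclei, 1.82 to 6.83). Among those from 384-well plates the shares were 13.7% of WT (39 nuclei, 9.92 to 18.2) and 11.4% of the pool labelled Ehmt1Δ/+ (35 nuclei, 8.10 to 15.5). With CamKII-CreER the shares were 5.82% of iTg (16 nuclei, 3.36 to 9.28) and 8.93% of the pool labelled Ehmt1Δ/+; iTg (25 nuclei, 5.86 to 12.9). These intervals cover counting error only.

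The difference by label, Ehmt1Δ/+ minus normal, was -12.8 percentage points in the 96-well pair, -2.25 in the 384-well pair without CreER and 3.11 in the pair with CreER. Its mean was -3.99 points (SD 8.11, n = 3 pairs), with p = 0.75 in the exact two-sided sign-flip permutation test, where 3 pairs allow no p below 0.25. Without the 96-well pair the mean was 0.432 points, so its direction rested on that pair. Intervals of the 96-well pools did not overlap, while those of the 2 pools in each 384-well pair did.

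The 96-well difference stood beside others in the same plates. Each of these pools had 4 plate codes in its labels, which held 9.52% to 24.6% high-activity neurons in WT and 0% to 8.96% in the pool labelled Ehmt1Δ/+. Both pools used 3 of the codes, and within them WT held 6 of 63, 15 of 61 and 10 of 65 against 2 of 60, 0 of 67 and 2 of 71. Under the same code, many wells of both formats were given for more than 1 nucleus, 379 of them in the 384-well format, so a code does not name a single plate. The values within a code are therefore not a comparison within a plate, and plate and label cannot be told apart. Glia, in which neuronal activity genes should be low, also differed, with a median score of 1.62 in 73 WT oligodendrocytes and 0.802 in 71 oligodendrocytes labelled Ehmt1Δ/+. Reads of Gad1 were found in 73.5% of WT neurons and in 39.6% of neurons labelled Ehmt1Δ/+. The part of such background in the difference was not tested. In the 384-well plates, WT carried another plate code than the other 3 pools, so code and genotype cannot be told apart in comparisons with that pool. The pair with CreER shared its code, but a shared code does not show a shared plate. Plate and genotype therefore cannot be told apart by the labels in that pair either.

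Glia rarely reached the threshold. Of 543 microglia and oligodendrocytes, 1 microglial nucleus of 36 in the 96-well WT pool did (2.78%, exact 95% interval 0.0703 to 14.5). In the other glial groups 0 nuclei did, for example 0 of 69 oligodendrocytes of the 384-well WT pool, which allows a share of up to 4.35%. Median glial depth in the 384-well plates was 39940 to 54877 reads, and the part of depth in their scores was not tested.

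**Figure D2:**
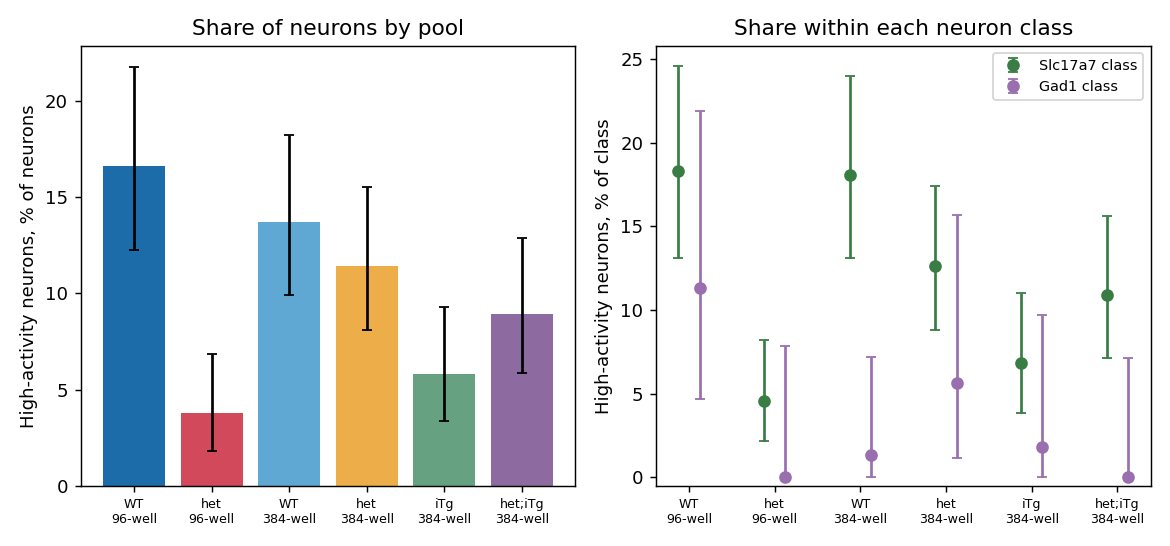
Share of neurons that were high-activity neurons in each pool (x axis, het for pools labelled Ehmt1Δ/+; left, % of all neurons) and within the Slc17a7 and the Gad1 class (right, % of the class), with exact 95% intervals for counting error. The share was lowest in the 96-well pool labelled Ehmt1Δ/+ (3.77%) and highest in 96-well WT (16.6%).

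High-activity neurons were mostly excitatory. A neuron was put in the Slc17a7 class where Slc17a7, the vesicular glutamate transporter of cortical excitatory neurons, exceeded Gad1, an enzyme of GABA synthesis, and otherwise in the Gad1 class. All but 12 of the high-activity neurons were in the Slc17a7 class, against 1169 of 1497 remaining neurons. The share in that class was 83.3% of high-activity against 73.9% of remaining neurons in 96-well WT and 100% against 82.4% in the 96-well pool labelled Ehmt1Δ/+. It was 97.4% against 69.9% in 384-well WT and 91.4% against 81.5% in the pool labelled Ehmt1Δ/+. With CreER it was 93.8% against 79.2% in iTg and 100% against 80.4% in the pool labelled Ehmt1Δ/+; iTg. The share was higher in 6 of 6 pools, by a mean of 16.4 percentage points (SD 6.79), with p = 0.03125 in the exact two-sided sign-flip permutation test, the smallest p that 6 pools allow.

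Seen from the other side, 4.55% to 18.3% of Slc17a7-class neurons and 0% to 11.3% of Gad1-class neurons were high-activity neurons. Of the 12 high-activity Gad1-class neurons, 7 came from 96-well WT. Depth was not shown to differ, with a log2 ratio of median read totals, high-activity to remaining, of -0.0090 (SD 0.161, n = 6, exact sign-flip permutation p = 0.938) and a range over pools of -0.280 to 0.175. The range includes ratios that could change detection in single pools.

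Genes outside the score were compared by the mean over nuclei of log2(RPKM+1), high-activity minus remaining neurons, with 1 difference per pool and limma's moderated test on the 6 differences. Of 26681 genes tested, 699 (2.62%) passed an adjusted p under 0.05, of which 395 were higher (1.48% of those tested) and the others lower (1.14%). Genes higher in all 6 pools, whatever their p, were 4.71% of those tested, and genes lower in all 6 were 7.33%. The nuclei were chosen in the same libraries, so genes transcribed with the score genes were bound to follow them to the extent that they vary together. The count fell whichever pool was left out, where 5 differences in place of 6 also leave the test less power. The share of genes called fell from 2.62% to 0.686% without 96-well WT, to 1.31% without the 96-well pool labelled Ehmt1Δ/+, to 0.375% without 384-well WT, to 1.41% without the 384-well pool labelled Ehmt1Δ/+, to 0.697% without iTg and to 0.232% without the pool labelled Ehmt1Δ/+; iTg.

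Because class shares differed, the same fit was made within Slc17a7-class neurons. There 54 genes were higher (0.202%) and 13 lower (0.0487%). All 54 were among the 395, and 12 of the 13 were among the genes lower over all neurons. Of the 395 genes, 392 kept a positive difference within the class, with a median of 0.38 against 0.59 over all neurons. In a stricter comparison of each member with 1 remaining neuron of its class, pool and nearest read total, 0.0675% of genes were called, with 15 higher (0.0562%) and 3 lower (0.0112%).

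Some of the other immediate early transcription factors were higher in high-activity neurons. Of 21 listed genes 19 were tested, and 10 were higher, 0 lower and 9 not called, against 1.48% of all genes tested that were higher. Their median log2 difference was 0.995, compared with -0.03 over all genes. Klf4 and Atf3 were above 0 in too few neurons to be tested. Within the Slc17a7 class 8 of the 19 were higher (Fosb, Fosl2, Egr3, Nr4a3, Npas4, Ier5, Klf10 and Per1), and in the matched comparison 4 were (Egr3, Nr4a3, Npas4 and Per1). Of all genes tested, 0.202% were higher within the class and 0.0562% in the matched comparison.

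Npas4, a neuron-specific bHLH-PAS factor induced by calcium, had the largest difference of the named genes. Its mean was 28.6 RPKM in high-activity and 3.93 in remaining neurons of 96-well WT, and 16.7 against 6.55 RPKM in the 96-well pool labelled Ehmt1Δ/+. In the 384-well plates it was 123.7 against 10.1 RPKM in WT, 92.5 against 12.2 in the pool labelled Ehmt1Δ/+, 81.96 against 11.6 in iTg and 74.3 against 8.26 in the pool labelled Ehmt1Δ/+; iTg. High-activity neurons were above remaining neurons in all 6 pools without overlap, a pattern shared by 0.225% of tested genes. The log2 difference was 2.46 ± 0.19 (SE, n = 6 pools), with an adjusted p of 0.0049 by limma, and 2.36 ± 0.18 within the Slc17a7 class.

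Egr3, a zinc-finger factor downstream of ERK, had a mean of 21.3 to 63.9 RPKM (median of pools 41.9) in high-activity neurons and 5.32 to 12.6 RPKM (7.59) in remaining neurons. Its pools did not overlap either, and the log2 difference was 2.29 ± 0.14 (adjusted p = 0.0024, limma). Nr4a3, an orphan nuclear receptor of the Nr4a1 family, had 10.9 to 38.01 RPKM against 3.65 to 7.45 RPKM, a difference of 1.81 ± 0.16.

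Egr2, a zinc-finger relative of Egr1 and Egr3, set 1 pool apart. It had 5.83 RPKM in high-activity neurons of 96-well WT and 8.72 to 19.1 RPKM in those of the 384-well pools, against 0.304 to 1.01 RPKM in remaining neurons. In the 96-well pool labelled Ehmt1Δ/+ it had 0.239 RPKM in 10 high-activity and 0.418 RPKM in remaining neurons. The difference over 6 pools was 1.56 ± 0.30 (adjusted p = 0.0455, limma). Within the Slc17a7 class it was as large, 1.58 ± 0.31, but was not called (adjusted p = 0.121, limma). Btg2, an antiproliferative cofactor, had 3.96 RPKM in high-activity neurons of the 96-well pool labelled Ehmt1Δ/+ and 11.6 to 34.6 RPKM in each other pool. Of the 10 high-activity neurons of that pool, 6 came from a plate code that no 96-well WT neuron carried. Their median read total, over all 10, was 291096, against 353523 in remaining neurons of that pool. The part of code and depth in these values was not tested.

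Fosb, an AP-1 subunit, was near absent from remaining neurons at 0.147 to 0.463 RPKM and had 0.518 to 6.38 RPKM in high-activity neurons (difference 0.92 ± 0.11). Fosl2, a Fos relative, had 6.41 to 19.2 RPKM against 2.67 to 4.62 RPKM (1.44 ± 0.18). Per1, a clock gene with CREs in its promoter, had 39.2 to 345 RPKM against 21.4 to 80.7 RPKM (1.35 ± 0.15). Klf10, a Krüppel-like factor, and Ier5, an immediate early response gene, differed by 1.09 ± 0.09 and 0.995 ± 0.080. Of the members that were not called, Egr4 differed by 1.17 (adjusted p = 0.0747, limma), Nr4a2 by 0.91 (0.113) and Jun by 0.18 (0.492).

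**Figure D3:**
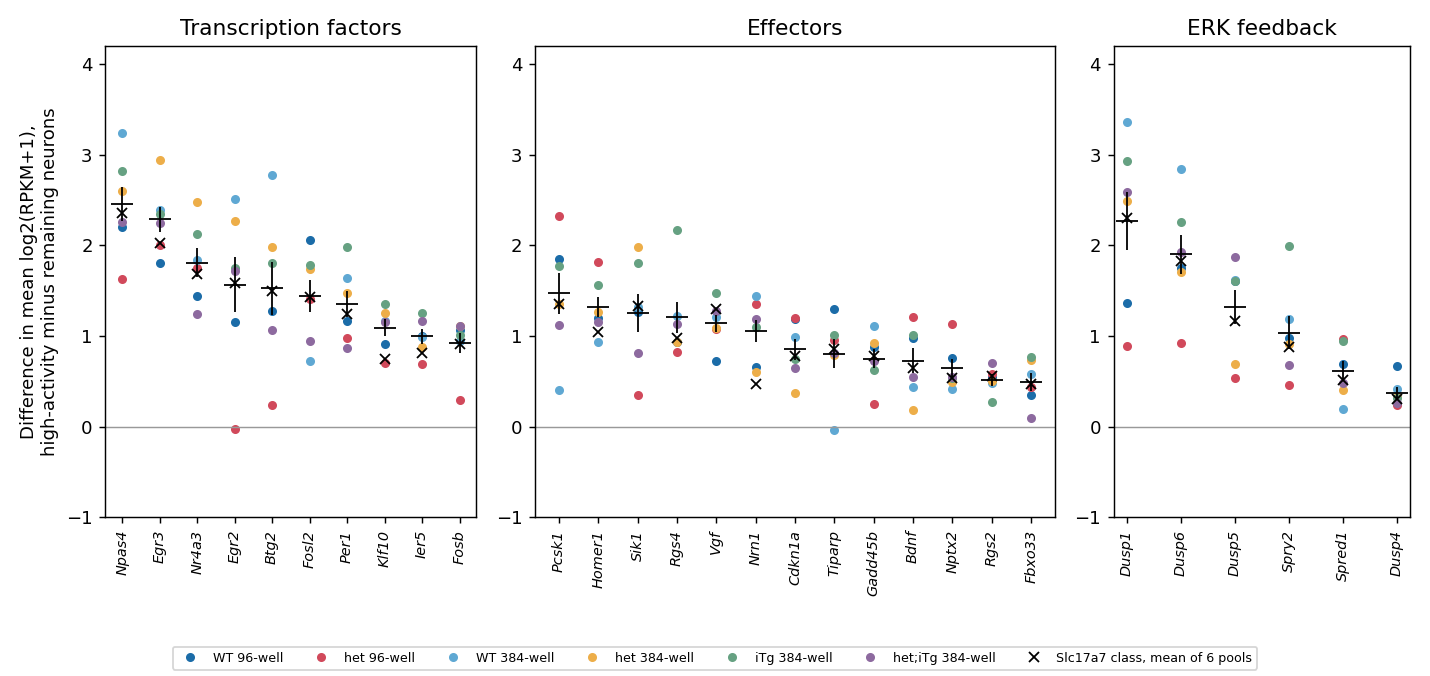
Difference in mean log2(RPKM+1), high-activity minus remaining neurons (y axis), for the called genes of 3 activity-regulated lists (x axis). Coloured points are the 6 pools (het for those labelled Ehmt1Δ/+), black bars the mean ± SE over pools, and crosses the mean within the Slc17a7 class. Npas4 (2.46), Egr3 (2.29) and Dusp1 (2.27) lie highest, and the 96-well pool labelled Ehmt1Δ/+ lies lowest for Egr2, Btg2 and Fosb.

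Effector genes of the later wave were also among the higher genes. All 24 listed genes were tested, and 13 were higher and 0 lower, against 1.48% of all genes tested that were higher. Their median difference was 0.65, compared with -0.03 over all genes. Within the Slc17a7 class 3 were higher (Homer1, Rgs2 and Vgf), against 0.202% of all genes tested. In the matched comparison Vgf alone was higher, against 0.0562% of all genes tested. Secreted and secretory products were among the 13. Pcsk1, a prohormone convertase, had 4.83 to 38.95 RPKM in high-activity and 3.35 to 15.5 RPKM in remaining neurons (1.47 ± 0.23). Vgf, a neurotrophin-induced granule protein, had 13.3 to 27.6 RPKM against 8.70 to 16.9 RPKM (1.14 ± 0.09).

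Bdnf, a neurotrophin, was low, at 2.17 to 8.20 RPKM against 1.10 to 1.92 RPKM, without overlap (0.73 ± 0.14). Nptx2, a pentraxin that clusters AMPA receptors, also did not overlap, at 11.8 to 27.7 RPKM against 4.93 to 8.61 RPKM (0.65 ± 0.10). Nrn1, a GPI-anchored neuritin, differed by 1.06 ± 0.12 over all neurons and by 0.47 ± 0.07 within the Slc17a7 class, where it was not called (adjusted p = 0.0707, limma).

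The G-protein regulators Rgs4 and Rgs2 differed by 1.20 ± 0.17 and 0.51 ± 0.07, and Sik1, a kinase that acts back on CREB coactivators, by 1.25 ± 0.21. Tiparp was higher in 5 of 6 pools, with -0.04 in 384-well WT, and the other 12 called effectors in all 6. The cell cycle inhibitor Cdkn1a had 4.25 to 5.86 RPKM against 1.08 to 3.05 RPKM (0.85 ± 0.12). Tiparp, a mono-ADP-ribosyltransferase, Gadd45b, a stress-response gene tied to DNA demethylation, and the F-box gene Fbxo33 differed by 0.81 ± 0.16, 0.75 ± 0.11 and 0.49 ± 0.10. Of those not called, Ptgs2, the inducible cyclooxygenase, differed by 0.49 (adjusted p = 0.0538, limma) and Scg2, a granin, by 0.54 (0.119).

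Homer1, which encodes scaffolds of metabotropic glutamate receptors and a short activity-induced form, was detected in all high-activity neurons. Its mean was 21.9 to 144.1 RPKM in high-activity and 14.3 to 56.2 RPKM in remaining neurons, higher in 6 of 6 pools (1.32 ± 0.11). Transcripts of the class TEC, to be experimentally checked, that are annotated inside Homer1 on the same strand were also higher. Gm47075 (GRCm38 chr13:93312041-93314055, 12406 bases into the gene) had 21.2 to 169.1 RPKM against 5.14 to 47.3 RPKM, a log2 difference of 2.11 ± 0.15. Gm47088 (chr13:93317427-93319065) differed by 1.79 ± 0.17. Both were named after their values were seen, and their reads cannot be told apart from unspliced Homer1 RNA.

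A similar cluster lay at the locus of miR-212 and miR-132, microRNAs that are induced through CREB and regulate neuronal morphology. The host transcript 1700016P03Rik (GRCm38 chr11:75172560-75177633, plus strand) had 47.2 to 125.3 RPKM in high-activity and 16.01 to 29.5 RPKM in remaining neurons without overlap. Its log2 difference was 2.21 ± 0.15 (adjusted p = 0.0033, limma), 2.08 ± 0.20 within the Slc17a7 class. Reads over the Mir212 hairpin, which lies in the host, differed by 1.08 ± 0.20. Mir132 was above 0 in too few neurons to be tested. Ovca2, a hydrolase gene on the opposite strand whose annotated span overlaps the host by 1692 bases, had 14.2 to 27.4 RPKM against 7.16 to 8.93 RPKM (1.20 ± 0.11), and reads in that overlap cannot be told apart. These genes were named after their values were seen, apart from the rule for named genes. The same holds for C630044B11Rik, a TEC transcript inside Ntrk2, the BDNF receptor gene, which had 38.5 to 69.2 RPKM against 13.4 to 27.2 RPKM without overlap (1.57 ± 0.15), while Ntrk2 itself had 36.6 to 70.8 RPKM against 33.9 to 41.6 RPKM (0.48 ± 0.10).

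The 3p arms encoded there share their seed, bases 2 to 8, shown in capitals in the RefSeq sequences, and are identical at 17 of 22 positions. The reads count precursor RNA in nuclei and give no level of either arm.
mmu-miR-132-3p, chr11:75173723-75173744, plus strand: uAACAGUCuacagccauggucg
mmu-miR-212-3p, chr11:75173443-75173464, plus strand: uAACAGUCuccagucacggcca

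**Figure D4:**
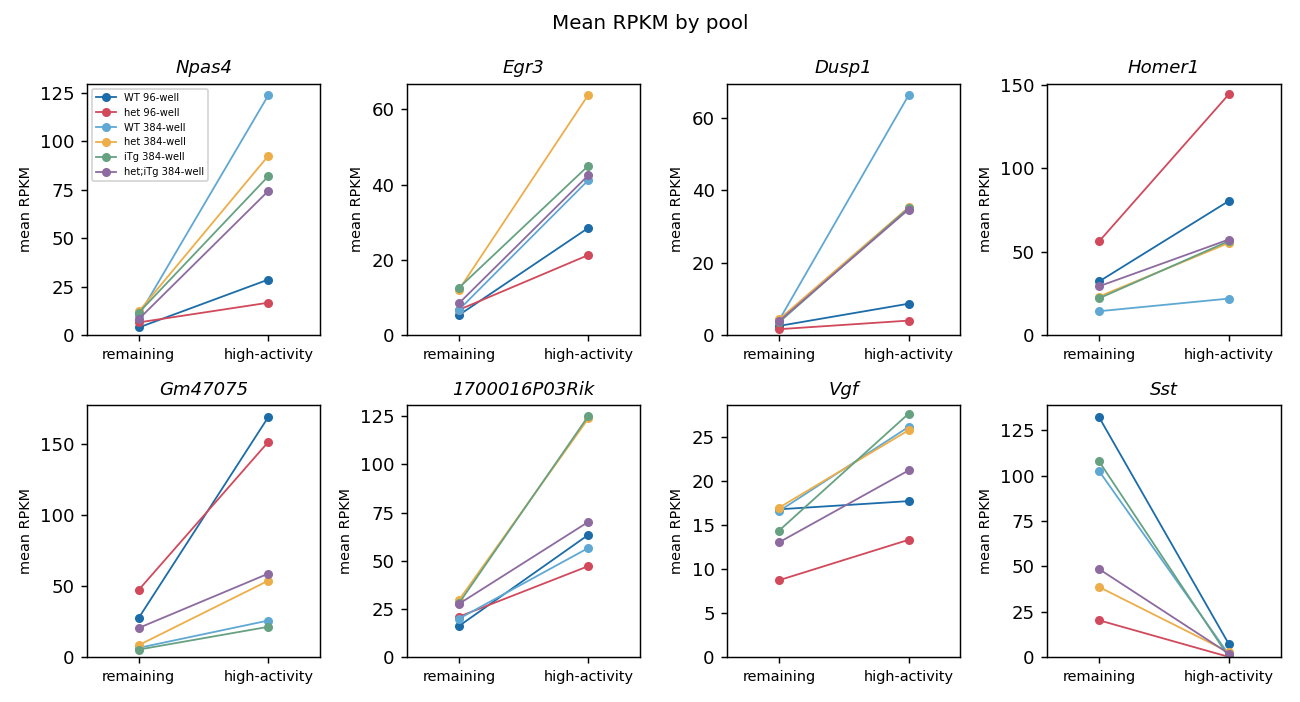
Mean RPKM (y axis) in remaining and high-activity neurons (x axis) for 8 genes, with 1 line per pool (het for those labelled Ehmt1Δ/+). Npas4 rose from 3.93 to 12.2 RPKM in remaining neurons to 16.7 to 123.7 RPKM in high-activity neurons, and Sst lay at 0 to 7.21 RPKM in high-activity neurons against 20.2 to 132.1 RPKM in remaining neurons.

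Negative feedback on the ERK pathway formed a further group. Of 10 listed genes, all tested, 6 were higher and 0 lower, against 1.48% of all genes tested that were higher. Their median difference was 0.51, compared with -0.03 over all genes. Dusp1, a nuclear MAP kinase phosphatase, had 8.66 and 4.002 RPKM in high-activity neurons of 96-well WT and of the 96-well pool labelled Ehmt1Δ/+, and 34.6 to 66.1 RPKM in the 384-well pools. Remaining neurons had 1.63 to 4.33 RPKM of Dusp1, and the difference was 2.27 ± 0.32 (adjusted p = 0.0194, limma). Dusp6, a cytoplasmic ERK phosphatase, had 7.11 to 32.7 RPKM against 3.46 to 6.97 RPKM (1.90 ± 0.22). Dusp5, a nuclear ERK phosphatase, and Spry2, an inhibitor of receptor tyrosine kinase signalling, differed by 1.32 ± 0.19 and 1.03 ± 0.18, and Spred1 and Dusp4 by 0.61 ± 0.11 and 0.37 ± 0.07. Dusp1 and Dusp6 were also called within the Slc17a7 class, where 0.202% of all genes tested were higher. In the matched comparison 0 of the 10 were called, against 0.0675% of all genes tested. Dusp1 still differed there by 2.17 (adjusted p = 0.161, limma) and Dusp6 by 2.08 (0.0838).

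Of 15 genes that act before the immediate early genes, all tested, 1 was higher and 1 lower (13.3%, against 2.62% of all genes tested), with a median of 0.02. Camk4, a nuclear CaM kinase that phosphorylates CREB, differed by 0.60 ± 0.08 and Mapk3, which encodes ERK1, by -0.55 ± 0.09. Within the Slc17a7 class they differed by 0.29 and -0.40, and neither was called. The transcription factors Creb1 and Srf differed by -0.08 (adjusted p = 0.709, limma) and 0.46 (0.106).

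Chaperones partly moved with the score. Of 10 heat shock and stress genes 9 were tested, and 3 were higher and 0 lower, against 1.48% of all genes tested that were higher. Their median difference was 0.12, compared with -0.03 over all genes. Hsph1 alone was called within the Slc17a7 class, where 0.202% of all genes tested were higher. In the matched comparison 0 of the 9 were called, against 0.0675% of all genes tested. The constitutive chaperone Hspa8 had 10.7 to 54.02 RPKM against 9.06 to 21.6 RPKM (1.01 ± 0.19), and Hsph1 and Hsp90aa1 differed by 0.59 ± 0.07 and 0.43 ± 0.06. Within the class Hspa8 differed by 1.04 (adjusted p = 0.101, limma) and Hsp90aa1 by 0.44 (0.0585), values close to those over all neurons. The inducible Hspa1a and Hspa1b differed by -0.08 and -0.02 and were not called. Of 13 mitochondrially encoded mRNAs 0 were called by limma (adjusted p of 0.385 or more), against 2.62% of all genes tested. Their summed RPKM was 78.1 to 459 in high-activity and 120 to 501 in remaining neurons. The part of stress during nuclear isolation in the differences was not tested.

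The 10 highest genes of all those tested, by the rule for named genes, were Npas4, Egr3, Dusp1, Dusp6, Nr4a3, Trib1, Btg2, Pcsk1, Fosl2 and Dusp14. Only Trib1 and Dusp14 of these stood outside the lists. Trib1, a pseudokinase that scaffolds protein degradation, had 3.91 to 10.4 RPKM against 1.30 to 3.38 RPKM without overlap (1.52 ± 0.11) and was also called within the class and in the matched comparison. Dusp14, a further dual-specificity phosphatase, had 19.8 to 35.8 RPKM against 6.76 to 14.4 RPKM (1.38 ± 0.14).

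Markers of inhibitory neurons were among the lower genes. Of 9 inhibitory markers, all tested, 8 were lower and 0 higher, against 1.14% of all genes tested that were lower, with a median of -0.68. Gad1 and Gad2, which make GABA, differed by -0.84 ± 0.16 and -0.83 ± 0.11. Lhx6, which marks interneurons of the medial ganglionic eminence, lay at 0 to 0.352 RPKM in high-activity and 3.40 to 7.23 RPKM in remaining neurons. Within the Slc17a7 class 0 of the 9 were called by limma, against 0.251% of all genes tested. Their median there was -0.02, although the class was itself defined with Gad1. Mean Gad1 RPKM was not lower in every pool, with 20.1 in high-activity and 18.5 in remaining neurons of 96-well WT and 10.7 and 9.77 in the 384-well pool labelled Ehmt1Δ/+, while the other 4 pools had 0.0915 to 2.64 against 11.9 to 16.6 RPKM.

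The lowest genes by the rule included Adcyap1r1, Dner, Cacna2d2, Cpne6, Gad1, Gad2, Zcchc12, Grin2d and Vstm2b. Of these, only Vstm2b was also called within the Slc17a7 class. Adcyap1r1, Cpne6, Dner and Grin2d were lower there in 6 of 6 pools but were not called. Cacna2d2, Gad1, Gad2 and Zcchc12 were higher there in 1 or 2 pools. Vstm2b, an immunoglobulin-domain membrane protein, had 1.87 to 5.66 RPKM against 4.90 to 11.1 RPKM (-0.82 ± 0.08 over all neurons, -0.63 ± 0.07 within the class). Adcyap1r1, the receptor of the neuropeptide PACAP, had 6.07 to 20.4 RPKM against 25.6 to 30.6 RPKM without overlap, a pattern of 0.997% of tested genes (-1.13 ± 0.19), and gave -0.86 within the class (adjusted p = 0.166, limma). Cpne6, a calcium-dependent phospholipid-binding protein of dendritic spines, had 23.6 to 83.1 RPKM against 41.7 to 123.8 RPKM (-0.85 ± 0.17). It gave -0.72 within the class (adjusted p = 0.181, limma).

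**Figure D5:**
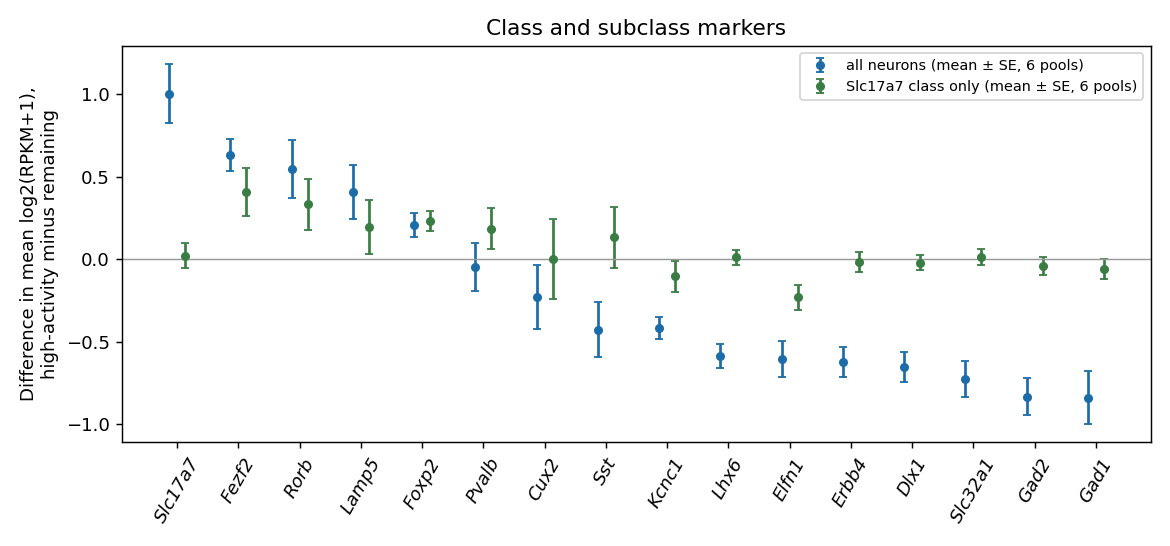
Difference in mean log2(RPKM+1), high-activity minus remaining neurons (y axis, mean ± SE over 6 pools), of class and subclass markers (x axis) over all neurons and within the Slc17a7 class. Slc17a7 (1.004) and Gad1 (-0.84) lie at the ends over all neurons, and both lie near 0 within the class (0.02 and -0.06).

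Of 7 excitatory markers 2 were higher, among them Slc17a7 by 1.004 ± 0.179, against 1.48% of all genes tested that were higher. Fezf2, the master regulator of subcortical layer 5 neurons, had 7.54 to 10.9 RPKM against 5.67 to 8.92 RPKM (0.63 ± 0.10). It was the only one of 7 layer 5 markers that was called. Of the 7, only 3 had a positive difference, and the median of the list was -0.06. Within the Slc17a7 class Fezf2 was not called (0.41, adjusted p = 0.281, limma). By limma 0 of 7 upper layer, 0 of 6 layer 4/5a and 0 of 5 tested layer 6 markers were called over all neurons or within the class. Of all genes tested, 2.62% were called over all neurons and 0.251% within the class. Lists this short hold few calls at such shares, so these counts do not decide whether layers differ. Rorb, a layer 4 factor, had 4.57 to 11.02 RPKM against 4.03 to 6.10 RPKM and differed by 0.55 ± 0.17 (adjusted p = 0.151, limma), higher in 4 of 6 pools on the log scale. The upper layer marker Cux2 differed by -0.23 ± 0.19 and the layer 6 marker Foxp2 by 0.21 ± 0.07, and neither was called.

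Among interneuron markers, Sst, the neuropeptide somatostatin, was 0 in high-activity neurons of the 96-well pool labelled Ehmt1Δ/+ and of iTg and at most 7.21 RPKM in the other pools, while remaining neurons had 20.2 to 132.1 RPKM. These means did not overlap, but the mean of log2 values, which weighs the few nuclei with very high Sst less, differed by -0.43 ± 0.16 (adjusted p = 0.221, limma). The log2 of the mean RPKM differed by -6.08 ± 0.85 and was called (adjusted p = 0.0431, limma), a size that depends on the pseudocount where a pool is at 0. Sst differed by 0.13 within the Slc17a7 class (adjusted p = 0.812, limma). Pvalb, a calcium-binding protein, differed by -0.05 ± 0.14 and Lamp5 by 0.41 ± 0.17, both not called. Vip was above 0 in too few neurons to be tested, with 0 to 19.9 RPKM in high-activity and 4.21 to 19.4 RPKM in remaining neurons. The Sst-class gene Elfn1 and the Pvalb-class channel Kcnc1 were lower by -0.60 ± 0.11 and -0.42 ± 0.07 over all neurons, and neither was called within the class.

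Markers of glia and endothelium were mostly not called. Of 4 tested microglia, 8 oligodendrocyte and 2 endothelial markers 0 were called by limma, against 2.62% of all genes tested. At that share, lists this short hold few calls. Of 8 astrocyte markers 6 were tested and 1 was called, the glutamate transporter Slc1a2, with 28.4 to 72.1 RPKM against 21.998 to 49.96 RPKM (1.07 ± 0.14). Slc1a2 was not called within the Slc17a7 class (0.57, adjusted p = 0.0874, limma) or in the matched comparison (0.49, adjusted p = 0.326). The summed astrocyte list was 46.9 to 78.7 RPKM in high-activity and 35.7 to 67.2 RPKM in remaining neurons, most of it Slc1a2. The summed microglia list was 4.70 to 13.04 RPKM against 6.97 to 12.02 RPKM, and the oligodendrocyte list 11.5 to 20.6 RPKM against 9.56 to 18.5 RPKM. Gfap was at most 0.549 RPKM, Aqp4 at most 0.502 RPKM and Gja1 at most 0.0145 RPKM in high-activity neurons.

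The programme was not shown to differ by Ehmt1 label. With the label and the plate format as terms on the 6 differences, limma called 0 of 26681 genes (0%) at an adjusted p under 0.05 and 1518 at an unadjusted p under 0.05, with 3 residual degrees of freedom. Ehmt1 itself differed by -0.02 ± 0.08 between high-activity and remaining neurons (adjusted p = 0.923, limma), with 17.3 to 39.9 RPKM against 18.998 to 33.3 RPKM.

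Casp1, an inflammatory caspase that the study followed in these nuclei, was above 0 in few high-activity neurons, in 6 of 42 in 96-well WT, 5 of 10 in the 96-well pool labelled Ehmt1Δ/+ (exact 95% interval 18.7 to 81.3), 0 of 39 in 384-well WT and 4 of 35 in the 384-well pool labelled Ehmt1Δ/+. With CreER it was above 0 in 0 of 16 in iTg and 2 of 25 in the pool labelled Ehmt1Δ/+; iTg. In remaining neurons the share was 20.4% in the 96-well pool labelled Ehmt1Δ/+ and 2.70% to 10.7% elsewhere. The share differed by a mean of 5.31 percentage points (SD 12.7, n = 6 pools, exact sign-flip permutation p = 0.406), and the log2 difference was 0.23 ± 0.17 (adjusted p = 0.514, limma). Without the 96-well pools its level in high-activity neurons was 0 to 1.16 RPKM, against 0.164 to 0.664 RPKM in remaining neurons.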

How the data were processed

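Single nuclei of mouse cortex (6 pools, 2207 nuclei) were measured by RamDA-seq. High-activity neurons were 42 of 253 and 10 of 265 neurons in the 96-well WT pool and the pool labelled Ehmt1Δ/+, 39 of 285 and 35 of 306 in the same groups of the 384-well format, 16 of 275 in iTg and 25 of 280 in the pool labelled Ehmt1Δ/+; iTg, in all 167 of 1664. Per the labels and the study's methods, the authors mapped reads with HISAT2 2.0.4 to mm10, counted reads per gene with featureCounts (Subread 1.5.0) and set cell types from clusters and markers. The authors deposited RPKM values per nucleus, 1 table per plate format, and every column matched 1 sample by its title. Genes were matched to the GENCODE M21 annotation for coordinates and lengths. The authors counted with default settings, which ignore strand, on another GENCODE release, so reads of overlapping genes cannot be told apart. Read totals were recovered from the steps of the RPKM values.

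The activity score, class (larger of Slc17a7 and Gad1 RPKM) and differences were computed with Python 3.11.15, numpy 2.4.6 and pandas 2.3.3. For each pool, the mean of log2(RPKM+1) over high-activity neurons minus that over remaining neurons was taken, which keeps the pool as a block, and 6 differences per gene were tested with limma (version 3.58.1, R 4.3.3), taking Benjamini-Hochberg adjusted p under 0.05 as called. Fold differences on this scale understate those of low genes. Genes above 0 in at least 5% of neurons of each format were tested, without the 5 score genes. The label term was fitted with plate format on the same differences. Shares and medians were compared by exact sign-flip permutation (two-sided), with Clopper-Pearson intervals at 95% and a limit of 3 counts for a share of 0. On simulated differences for the comparison of high-activity with remaining neurons (26681 genes, 50 changed at each size), limma called 0 at a log2 difference of 0.25, 23 at 0.5, 41 at 1 and 48 at 2, and 6 unchanged genes.

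The members, the gene lists and the tests were chosen with earlier results of these data known. The named genes are the called genes of the transcription factor, effector and ERK lists, Ehmt1, Casp1, 10 defining markers, and the 10 highest and 10 lowest called genes with the same sign in 6 pools, passing over predicted genes, pseudogenes and small RNAs. The study's count test on single nuclei was not used, since nuclei of 1 pool are not replicates. Promoter and microRNA sequences are from RefSeq (GRCm38.p6). Promoters of Arc and Egr1 are not shown, and some marker genes are not reported here.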

Additional observations from a re-analysis of the deposited data

Results flagged for a closer look

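Of 58 sets of 6 pool values that were checked for a pool far from the others, 6 were picked out, and chance alone picks about 1 in 20. The 96-well pool labelled Ehmt1Δ/+, with 10 high-activity neurons, accounted for 4 of them. Its share of Casp1-positive nuclei was 29.6 percentage points higher in high-activity than in remaining neurons, against -6.10 to 6.23 in the other pools, and its Casp1 log2 difference was 1.19, against -0.15 to 0.19. Adcyap1r1 differed there by -2.26, against -0.996 to -0.761 elsewhere. Fosb differed there by 0.30, against 0.94 to 1.11. Of the 10 high-activity neurons of that pool, 6 shared a plate code absent from 96-well WT neurons. The part of that code in these values was not tested. Fezf2 differed by 0.13 in 384-well WT and by 0.58 to 0.82 in the other pools. Rgs4 differed by 2.17 in iTg and by 0.83 to 1.22 in the other pools.

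The share of high-activity neurons, pool labelled Ehmt1Δ/+ minus normal, was -12.8 and -2.25 percentage points in the pairs without CreER and 3.11 in the pair with CreER. The pairs moved in opposite directions, and the difference between them was not tested. At the 95th percentile all 3 were negative (-7.96, -2.91 and -0.403), and the value of the pair with CreER was 0.955 without Fos in the score and 0.832 with thinned reads.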

How the results depend on the processing

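The share of tested genes that were called depended on most choices. It was 2.62% as reported, 2.10% with log2(RPKM+0.1), 4.30% for genes above 0 in at least 20% of neurons and 3.78% with a trend in the prior variance. It was 0.536% from the log2 of the mean RPKM (30.1% of calls higher, against 56.5% as reported), where the median of all genes moved from -0.03 to -0.12. It was 0.614% without a filter (44.7% higher), 0.251% in the Slc17a7 class (80.6%), 0.0675% when matched on class and read total (83.3%), 9.72% at the 80th and 0.191% at the 95th percentile (82.4%), 4.77% with the percentile taken within each pool, and 0.116% in the 384-well pools alone (87.1%). In the 96-well pools alone limma called 0 genes (0%), with 2651 at an unadjusted p under 0.05. Leaving out 1 pool gave 0.232% to 1.41%. Without the pool as a replicate block 0.161% were called. The cause of these changes was not tested. Of 51 named genes, 24 stayed on their side of the threshold in the Slc17a7 class and 14 when matched, where Slc17a7 itself turned to -0.11 (adjusted p = 0.772).

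The share of Slc17a7-class neurons was higher by 11.2 percentage points without Arc in the score. Under all other scores and thresholds tried it was higher by 16.3 to 19.7 points. It was higher by 14.2 to 17.9 without 1 pool, where 5 pools allow no exact p below 0.0625. The share of high-activity neurons by label stayed negative, from -8.29 to -1.71 points, under other scores, thresholds and thinned reads, and ranged from -7.54 to 0.432 without 1 pair. The log2 ratio of read totals changed sign at the 80th (0.0433) and the 95th percentile (0.116), without Egr1 in the score (0.0358), with log2(RPKM+0.1) in the score (0.0340) and with thinned reads (0.0101), and ranged from -0.0459 to 0.0452 without 1 pool. Of the 543 glia, 0.737% reached the 80th and 0% the 95th percentile, settings chosen after the data were seen, as was the common threshold for both formats. Scores without 1 gene kept 83.2% to 93.4% of the high-activity neurons. The label comparison called 0 genes by limma under each alternative, with 1188 to 2409 at an unadjusted p under 0.05. Depth limits what single nuclei show, and 10 to 42 high-activity neurons a pool limit the pool means.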
